A study of Homo sapiens with 3 samples.

Results

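Gene expression was compared directly between RWPE1 cells infected with a MYC retrovirus and RWPE1 cells infected with a retrovirus for an active PI3K mutant (E545K). RWPE1 is an established benign prostate epithelial cell line, and both derivatives, like the cells with the empty PMN vector, were grown in serum-free keratinocyte medium with bovine pituitary extract and EGF and had no treatment before harvest. Each group is 1 Illumina array (3 arrays in all), and the labels name neither clones nor replicate infections. A gene was kept where a probe carried 1 gene symbol and was above background on the MYC-labelled array (detection value above 0.99) or had a rebuilt signal of at least 284 on the PI3K array. This kept 8823 of 21834 probes and 7802 of 16922 genes. The choice did not use the difference itself, but a gene kept through 1 array only was in effect chosen as higher on that array. Every value below is a description of these arrays, with no test.

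MYC is a transcription factor that pairs with MAX at E-box sequences, and it is known for raising genes of ribosome production, nucleotide supply and translation and for lowering differentiation genes. PI3K makes the membrane lipid that recruits AKT, and AKT in turn restrains FOXO factors and promotes mTORC1, glucose uptake and lipid synthesis. E545K lies in the helical domain of the catalytic subunit and keeps the enzyme active without a growth signal. In prostate epithelium both pathways are known for their part in cancer.

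Values are signals scaled to the 75th percentile of the vector array, and a difference is the log2 signal on the MYC-labelled array minus that on the PI3K array, so a positive value means a higher signal on the MYC-labelled array. Over all probes the scaled arrays were matched at the 75th percentile but not at the median. The median signal was 184.2 on the MYC-labelled array, 184.0 on the PI3K array and 158.9 on the vector array. The middle of the vector array's signals thus lay lower, and small positive differences from the vector are to be read beside that. Of the 7802 genes, 7024 were above background on both oncogene arrays, 372 on the MYC-labelled array only and 406 on the PI3K array only. The introduced genes check the labels poorly. MYC is read by 1 probe, with a signal of 5229 on the MYC-labelled array, 3520 on the PI3K array and 6229 on the vector array. It was 1.49-fold higher on the MYC-labelled array than on the PI3K array but did not exceed the vector. The sources used here do not place the probe relative to the introduced MYC sequence, so its reading does not settle the label, and each direction below rests on it. PIK3CA was not analysed here.

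The 2 oncogene arrays were close for most genes. The median difference over the 7802 genes was 0.01, with quartiles of -0.26 and 0.27, and 6455 genes (82.7%) lay within 1.5-fold. Above 0 were 3996 genes (51.2%), the share beside which the counts of list members above or below 0 are to be read. At least 2-fold higher on the MYC-labelled array were 179 genes (2.29%), and 205 (2.63%) were at least 2-fold lower. With genes above background on 1 array only taken at their lower bound, these counts were 142 (1.82%) and 152 (1.95%). At least 4-fold apart were 19 genes higher and 30 lower. Of the 384 genes 2-fold apart, 2 are Y-linked and are counted but not named. The share of genes 2-fold apart was 5.43% among the 1951 dimmest genes and 3.74% among the 1951 brightest. The only error available is that between probes of 1 gene. Over 743 genes with a pair of probes above background on both arrays, the SD of a probe's difference was 0.19. It leaves out all variation between cultures, RNA preparations and hybridisations. In 32 of them the brighter probe was 2-fold apart, and the dimmer one kept the direction in 32 and was itself 2-fold apart in 17. Background was not subtracted from the signals, so the differences of dim genes are understated.

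**Figure D1:**
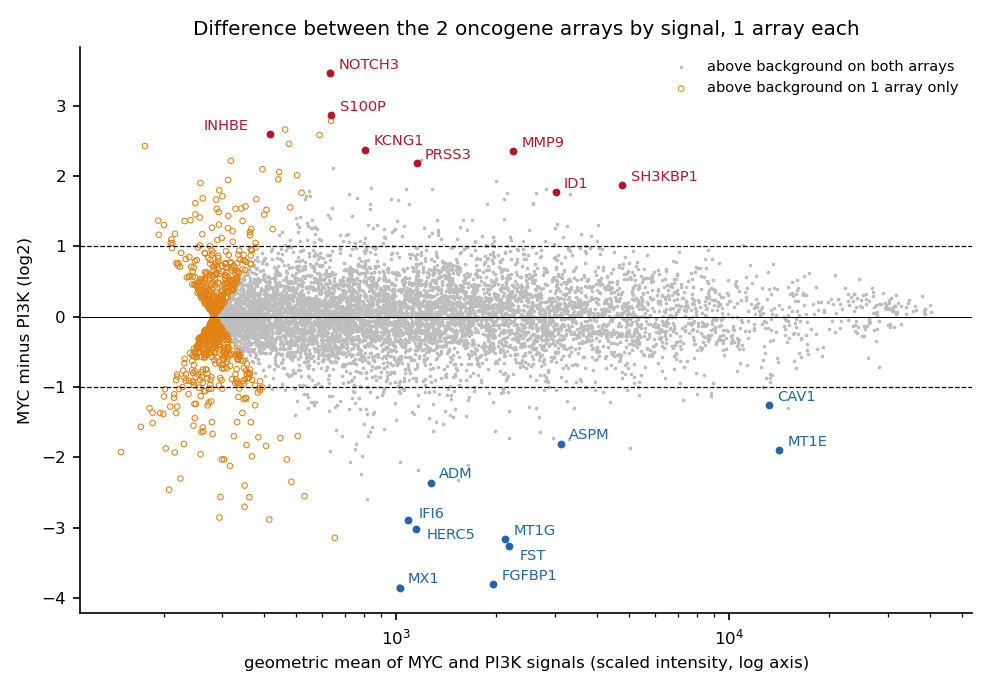
Log2 difference of the MYC-labelled array minus the PI3K array (vertical axis) against the geometric mean of their signals (horizontal axis, log scale), 1 point for each gene kept, 1 array a group. Filled grey points are above background on both arrays, open orange circles on 1 array only, and dashed lines mark 2-fold. Of the 7802 genes, 179 lie at or above the upper line and 205 at or below the lower one, and FGFBP1, at -3.80, is the lowest gene above background on both arrays. The plotted places of open circles, and of NOTCH3, S100P, INHBE and MX1, use 1 reading below background.

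Among the 15 genes highest on the MYC-labelled array and above background on both arrays were proteases, a growth factor and a channel subunit. The gelatinase MMP9, which cleaves matrix collagen, had signals of 5081 on the MYC-labelled array, 996 on the PI3K array and 306 on the vector array, a difference of 2.35. PRSS3, a trypsinogen whose close relatives a probe may not separate, had 2453, 540 and 362 on the same arrays in that order, a difference of 2.18. GAL, the precursor of the neuropeptide galanin, had 4849 on the MYC-labelled array, 1433 on the PI3K array and 554 on the vector array, a difference of 1.76. For these genes the vector array was the lowest of the 3. HBEGF, a ligand of the EGF receptor, differed by 1.93, with 3884 on the MYC-labelled array, 1022 on the PI3K array and 2380 on the vector array between them. KCNG1, a modifier subunit of voltage-gated potassium channels, differed by 2.37 (1831 on the MYC-labelled array, 354 on the PI3K array and 943 on the vector array). PLTP, a phospholipid transfer protein, differed by 2.23 with signals of 2579 on the MYC-labelled array, 550 on the PI3K array and 1546 on the vector array, and by 0.98 with its second probe. SH3KBP1, an adaptor in the uptake of growth factor receptors, gave 1.87 and 1.84 with its 2 kept probes. The brighter of them read 9128 on the MYC-labelled array, 2504 on the PI3K array and 2772 on the vector array, so the PI3K and vector arrays were close.

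For several other leading genes the PI3K array was the lowest of the 3. ID1, an inhibitor of basic helix-loop-helix factors, had 5559 on the MYC-labelled array, 1631 on the PI3K array and 6654 on the vector array, a difference of 1.77 that was 0.92 with a dimmer second probe. Its relative ID3 had 3279, 1077 and 2885 in the same order of arrays, a difference of 1.61. KLF4, a transcription factor of epithelial differentiation, had 3954 on the MYC-labelled array, 1173 on the PI3K array and 3319 on the vector array, a difference of 1.75. SMOX, a spermine oxidase, differed by 1.79 (1016 on the MYC-labelled array, 294 on the PI3K array and 808 on the vector array). SPOCK1, a proteoglycan of the matrix, differed by 1.83 (1584 on the MYC-labelled array, 446 on the PI3K array and 1218 on the vector array). SNRPN, which encodes a splicing protein from an imprinted locus, differed by 2.11, with 1340 on the MYC-labelled array, 311 on the PI3K array and 2131 on the vector array. SNURF, which shares its transcript with SNRPN and so is no separate observation, had 612.9 on the MYC-labelled array, 159.5 on the PI3K array and 708.4 on the vector array. The remaining genes among the 15 highest were COL16A1 (1.82), a fibril-associated collagen, FKBP11 (1.81), a prolyl isomerase of the endoplasmic reticulum, and ROBO3 (1.81), a Slit receptor family member.

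The 372 genes above background on the MYC-labelled array only have a lower bound for their fold, and the 6 with the highest bounds were read as follows. NOTCH3, a NOTCH receptor, had 2101 on the MYC-labelled array, 190 on the PI3K array and 390 on the vector array, and was at least 7.40-fold higher on the MYC-labelled array. S100P, a calcium-binding protein, was at least 6.06-fold higher, with 1721 on the MYC-labelled array, 237 on the PI3K array and 1880 on the vector array. The matrix protein ECM2 was at least 5.88-fold higher, the receptor phosphatase PTPRM at least 5.07-fold and the adhesion receptor ADGRL1 at least 4.10-fold. LGALS7B, a galectin of stratified epithelia with a near-identical copy in LGALS7, was at least 3.93-fold higher. S100P was near its vector level on the MYC-labelled array, whereas NOTCH3, ECM2 and ADGRL1 were over 2-fold above the vector there.

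Genes lower on the MYC-labelled array had the larger differences. FGFBP1, which releases fibroblast growth factors from the matrix, had 522 on the MYC-labelled array, 7285 on the PI3K array and 4631 on the vector array, a 13.9-fold lower signal (difference -3.80). FST, the activin antagonist follistatin, had 708 on the MYC-labelled array, 6763 on the PI3K array and 6169 on the vector array, a difference of -3.26, and its second probe gave -1.75. The PI3K and vector arrays were close for FST. ADM, the vasoactive peptide adrenomedullin, had 560 on the MYC-labelled array, 2876 on the PI3K array and 2533 on the vector array (difference -2.36). PI3, the elastase inhibitor elafin and no part of the PI3K pathway, had 359 on the MYC-labelled array, 1701 on the PI3K array and 998 on the vector array (difference -2.24). SH3PXD2A, the scaffold TKS5 of matrix-degrading invadopodia, differed by -2.32, with 684 on the MYC-labelled array, 3424 on the PI3K array and 1932 on the vector array. PLIN2, which coats lipid droplets, was below background on the MYC-labelled array and at least 4.52-fold lower there, with 219 on the MYC-labelled array, 1283 on the PI3K array and 783 on the vector array. EFEMP1 (a fibulin, -2.23), SGK1 (a kinase activated through PI3K, -2.06), SAA1 (an acute-phase protein, -2.11) and ARHGDIB (-1.98) were also among the 15 lowest. SGK1 had 355 on the MYC-labelled array, 1486 on the PI3K array and 6344 on the vector array, so the vector array was the highest of the 3. EFEMP1 ran the same way, with 653 on the MYC-labelled array, 3059 on the PI3K array and 8377 on the vector array.

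**Figure D2:**
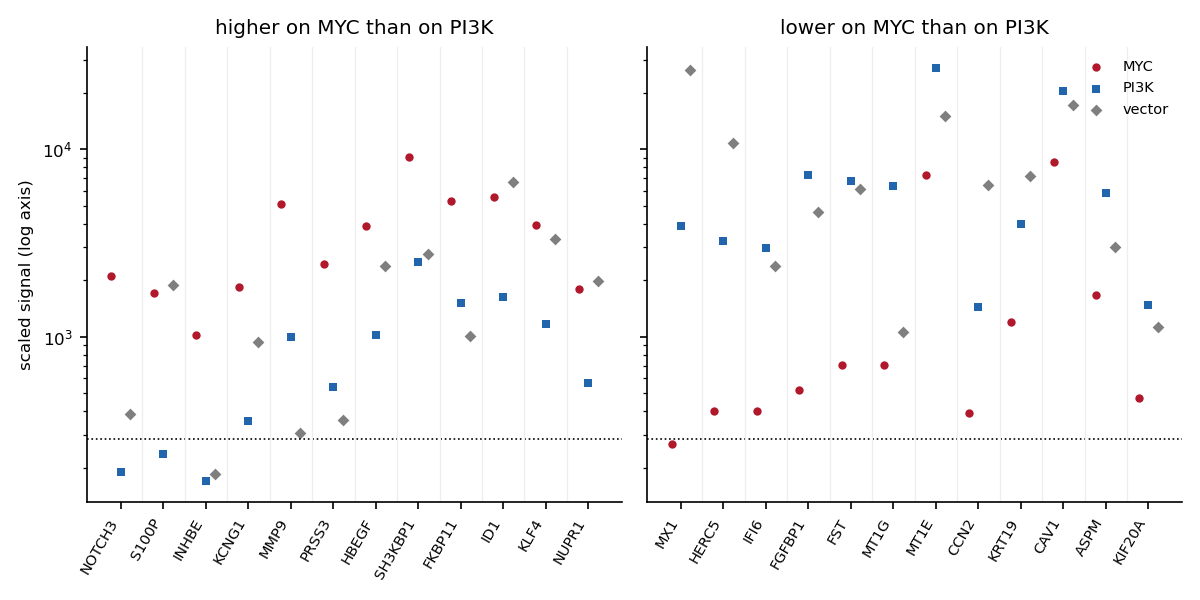
Scaled signal (vertical axis, log scale) of 24 genes named in the text on the MYC-labelled array (red circles), the PI3K array (blue squares) and the vector array (grey diamonds), 1 array each. The dotted line is the signal of 284 used as the background limit on the PI3K array. MMP9 and PRSS3 were lowest on the vector array, ID1 and NUPR1 were lowest on the PI3K array, and MX1, HERC5 and CCN2 were highest on the vector array.

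The direct difference does not use the vector array, and the vector array shows which of the pair stood apart. It gives no independent support, since both oncogene arrays were set against the same vector array. Over the 7802 genes, 188 (2.41%) were at least 2-fold higher on the MYC-labelled array than on the vector array and 280 (3.59%) lower. The PI3K array had 100 (1.28%) at least 2-fold higher than the vector array and 234 (3%) lower. These counts include readings below background. The place of the vector was therefore taken over the genes above background on all 3 arrays, a restriction added after the data had been seen. Of 117 such genes at least 2-fold higher on the MYC-labelled array than on the PI3K array, the vector lay between them for 87, below both for 19 and above both for 11. In 30 of the 117, the MYC-labelled array was 2-fold from the vector and the PI3K array within 1.5-fold of it, as for PRSS3, SH3KBP1 and FKBP11. In 23 the PI3K array was the one apart, as for ID1, KLF4 and NUPR1. Of 129 such genes at least 2-fold lower on the MYC-labelled array, the vector lay between for 79, above both for 45 and below both for 5. The MYC-labelled array was the one apart in 29, as for FST, ADM and the basal keratin gene KRT5, and the PI3K array in 11, as for MT1G, SLC2A3 and BNIP3. In another 19 genes both arrays were at least 2-fold below the vector and the MYC-labelled array lay lower still, HERC5, IFIT1, SGK1 and IRF9 among them. In 0 of these genes did the arrays stand 2-fold from the vector on opposite sides.

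Interferon-stimulated genes formed the group farthest below the PI3K array. Interferons act through STAT factors and IRF9, which bind interferon-stimulated response elements and switch on antiviral genes. Of 40 measured members of the interferon list (51 on the array), 38 were below 0 and 27 were at least 2-fold lower on the MYC-labelled array, 20 of them at their bound. The list's median was -1.40, or -0.98 with dim genes at their bound, against 0.01 over all genes. MX1, an antiviral GTPase, had 269 on the MYC-labelled array, which is below background, 3890 on the PI3K array and 26602 on the vector array, and was at least 13.7-fold lower on the MYC-labelled array than on the PI3K array. HERC5, the ligase for the modifier ISG15, had 403 on the MYC-labelled array, 3259 on the PI3K array and 10778 on the vector array (difference -3.01). IFIT1, which binds the ends of foreign RNA, had 332 on the MYC-labelled array, 1998 on the PI3K array and 10621 on the vector array (difference -2.59). For these genes the order was the same, with the MYC-labelled array lowest and the vector array highest. IRF9, the DNA-binding subunit itself, had 502 on the MYC-labelled array, 2095 on the PI3K array and 6533 on the vector array (difference -2.06). BST2, which tethers budding virions, had 544 on the MYC-labelled array, 2476 on the PI3K array and 3259 on the vector array (difference -2.19). The median list difference from the vector was -3.12 on the MYC-labelled array and -2.06 on the PI3K array, and 0 and 1 members stood above the vector. LAMP3 (0.29) and IFI30 (0.05) were the members not lower than on the PI3K array.

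IFI6, a mitochondrial interferon-stimulated protein, shows how far a probe can matter. Its brighter probe read 399 on the MYC-labelled array, 2960 on the PI3K array and 2381 on the vector array, a difference of -2.89. The second probe read 267 on the MYC-labelled array, 661 on the PI3K array and 10922 on the vector array, a difference of -1.31. Both probes put the MYC-labelled array below the PI3K array, but they disagree on whether the PI3K array was below the vector. The cause of the disagreement was not tested.

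The 250 bases before the start of IFIT1, IFI6 and HERC5 are shown because these genes are interferon-stimulated, are among the 15 lowest and hold matches to the interferon-stimulated response element, spelled GAAANNGAAA and searched on both strands. The windows of MX1, the interferon gene with the highest bound, and of FGFBP1, the lowest gene above background on both arrays, were searched too and held 0 matches. Capitals mark the matches, which can overlap. Sequences are from RefSeq (GRCh38.p14), each on the strand of its gene: IFIT1 chr10:89392373-89392622 (plus), IFI6 chr1:27672193-27672442 (minus) and HERC5 chr4:88456869-88457118 (plus).
IFIT1: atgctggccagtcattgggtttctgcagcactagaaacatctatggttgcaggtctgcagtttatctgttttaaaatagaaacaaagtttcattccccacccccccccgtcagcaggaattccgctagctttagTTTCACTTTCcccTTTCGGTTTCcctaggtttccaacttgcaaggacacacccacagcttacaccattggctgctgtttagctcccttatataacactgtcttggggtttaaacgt
IFI6: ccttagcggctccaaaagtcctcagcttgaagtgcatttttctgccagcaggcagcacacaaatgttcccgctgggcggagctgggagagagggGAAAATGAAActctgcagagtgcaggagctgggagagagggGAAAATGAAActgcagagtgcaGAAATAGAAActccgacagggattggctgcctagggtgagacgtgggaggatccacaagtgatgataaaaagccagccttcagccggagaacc
HERC5: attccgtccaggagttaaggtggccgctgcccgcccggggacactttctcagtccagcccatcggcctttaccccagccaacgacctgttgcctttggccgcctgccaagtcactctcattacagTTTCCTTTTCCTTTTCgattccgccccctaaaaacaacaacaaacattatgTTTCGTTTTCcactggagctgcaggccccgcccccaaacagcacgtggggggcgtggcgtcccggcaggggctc

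IFIT1 held 2 matches, IFI6 held 3 and HERC5 held 3, of which a pair overlap. Promoters were available for 6574 of the 7800 kept genes outside the Y-linked pair. A match stood in 22 of 155 promoters (14.2%) of genes at least 2-fold lower on the MYC-labelled array and in 3 of 144 (2.08%) of those at least 2-fold higher. Among all kept genes it stood in 157 of 6574 (2.39%) and among all promoters of the same length in 839 of 27305 (3.07%). The interferon list itself had 20 of 32 (62.5%). It was drawn up from known interferon-induced genes, so its share describes the list and not the arrays. Of its 40 measured members, 27 are among the genes at least 2-fold lower, so the shares of these sets are not independent. A match is a string of letters in this window and does not show that a factor binds there.

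Other immune lists leaned the same way by smaller amounts. MHC class I presentation had 14 of 15 measured members below 0, with a median of -0.30. Its immunoproteasome subunit PSMB9 had 213 on the MYC-labelled array, 699 on the PI3K array and 1647 on the vector array, and was at least 2.46-fold lower on the MYC-labelled array than on the PI3K array. PSMB8, another such subunit, differed by -0.86 with its brightest probe and by -0.77 and -0.61 with the other 2 kept probes. Of 22 measured cytokine and NF-kB target genes, 7 were at least 2-fold lower, 4 of them at their bound, and 1 was higher. The list's median was -0.27, against -0.20 for housekeeping genes, and 6 members were above 0. IL1B, the inflammatory cytokine interleukin-1 beta, had 1278 on the MYC-labelled array, 2977 on the PI3K array and 2680 on the vector array. CCL20, a chemokine, had 597 on the MYC-labelled array, 1661 on the PI3K array and 981 on the vector array, so it stood above the vector on the PI3K array. SAA1 gave -2.11, -1.64 and -1.19 with its 3 probes. LCN2, an iron-scavenging lipocalin, was the member at least 2-fold higher, at 1.62, with 4517 on the MYC-labelled array, 1474 on the PI3K array and 1519 on the vector array.

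Genes of mitosis were lower as a group on the MYC-labelled array. Of 56 measured members, 55 were below 0 and 22 were 2-fold lower or more, 21 of them at their bound. The list median was -0.88. Over the list, summed signal was 76937 on the MYC-labelled array, 137009 on the PI3K array and 105326 on the vector array. The vector lay between, since 6 members stood above it on the MYC-labelled array and 52 on the PI3K array, with median differences from it of -0.45 and 0.41. In bulk RNA, fewer dividing cells and less of these transcripts in each cell cannot be told apart, and the state of the cultures at harvest is not in the labels. ASPM, a protein of the spindle poles, had 1671 on the MYC-labelled array, 5839 on the PI3K array and 3001 on the vector array (difference -1.80). KIF20A, a kinesin needed for cytokinesis, had 472 on the MYC-labelled array, 1471 on the PI3K array and 1132 on the vector array (difference -1.64). KIF11, the kinesin that separates spindle poles, had 784 on the MYC-labelled array, 2218 on the PI3K array and 1158 on the vector array. The mitotic kinase genes AURKB (-1.35) and AURKA (-1.19, and -1.22 with its second probe) and the spindle gene DLGAP5 (-1.39) were lower too. CCNB1, the cyclin that drives entry into mitosis, had 758 on the MYC-labelled array, 2062 on the PI3K array and 1211 on the vector array (difference -1.44). NDC80, a kinetochore protein, was the 1 member above 0, at 0.12.

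The windows before KIF20A and CCNB1 are shown because mitotic promoters are known for CCAAT boxes, bound by NF-Y, and these genes lie among the lowest of the list. Capitals mark CCAAT on either strand. Sequences are from RefSeq (GRCh38.p14), on the plus strand in both cases: KIF20A chr5:138178862-138179111 and CCNB1 chr5:69166900-69167149.
KIF20A: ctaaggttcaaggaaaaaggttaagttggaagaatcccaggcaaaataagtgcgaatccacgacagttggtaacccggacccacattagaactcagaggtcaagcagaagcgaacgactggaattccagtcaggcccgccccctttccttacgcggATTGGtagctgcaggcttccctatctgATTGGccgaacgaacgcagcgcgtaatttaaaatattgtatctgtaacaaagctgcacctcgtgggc
CCNB1: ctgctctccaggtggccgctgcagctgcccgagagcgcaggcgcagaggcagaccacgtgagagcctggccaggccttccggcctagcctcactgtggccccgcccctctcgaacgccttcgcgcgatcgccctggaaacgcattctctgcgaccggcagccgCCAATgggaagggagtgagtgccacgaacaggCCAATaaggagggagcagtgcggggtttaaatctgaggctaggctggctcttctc

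Each window held 2 matches. The mitosis list had CCAAT in 35 of 48 promoters (72.9%), against 2412 of 6574 (36.7%) among all kept genes and 9021 of 27305 (33.0%) among all promoters. Genes at least 2-fold lower on the MYC-labelled array had it in 72 of 155 (46.5%) and those at least 2-fold higher in 45 of 144 (31.2%). The list was drawn up from known mitotic genes, so its motif shares describe the list and not the arrays. Further motifs were searched. The E-box CACGTG stood in 9 of 144 promoters (6.25%) of genes at least 2-fold higher and in 15 of 155 (9.68%) of those lower. Among all kept genes it stood in 637 of 6574 (9.69%). The MYC growth targets had it in 7 of 34 (20.6%), and that list was drawn up from genes with MYC at their promoters. The sterol regulatory element, spelled TCACNCCAC, stood in 0 of 14 promoters of the cholesterol list. The amino acid response element, spelled TGATGNAA, stood in 6 of 144 promoters (4.17%) of higher genes and 2 of 155 (1.29%) of lower ones. Among all kept genes it stood in 90 of 6574 (1.37%). The metal response element TGCGCNC stood in 3 of 9 metallothionein list promoters (33.3%, against 27.5% of all kept genes). The TEAD motif GGAATG stood in 1 of 10 YAP and TAZ list promoters (10%, against 9.19%).

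Earlier cell cycle phases differed less. DNA replication genes had a median of -0.29 (6 of 39 above 0, 2 at least 2-fold lower, or 1 with dim genes at their bound). TK1, thymidine kinase, had 880 on the MYC-labelled array, 2233 on the PI3K array and 1709 on the vector array (difference -1.34). MCM6, a subunit of the replicative helicase, differed by -0.66, and RRM2, a subunit of ribonucleotide reductase, was below background on the MYC-labelled array. DUT, which clears dUTP, gave -0.91 and -0.96 with its brighter probes and 0.17 with the dimmest. The G1 list was near 0 at -0.02, with CCND3, a D-type cyclin, 2-fold lower (2758 on the MYC-labelled array, 5699 on the PI3K array and 5022 on the vector array). CDKN1A, the p21 inhibitor, was on the higher side at 0.77, with 9053 on the MYC-labelled array, 5306 on the PI3K array and 8537 on the vector array, whereas CDKN1B, p27, was at -0.68. Histone genes had 14 of 15 measured members below 0 and a median of -0.42, with no member 2-fold apart and H2AX lowest at -0.99. Most replication-dependent histone messages lack a poly(A) tail, and their signals depend on how the probe material was primed.

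Genes of protein synthesis were slightly higher on the MYC-labelled array as a group, with few large differences. MYC growth targets had a median of 0.22 (33 of 41 above 0, 1 at least 2-fold higher). That 1 is 2.44% of the list, near the 2.29% over all genes. GRPEL1, a cochaperone of protein import into mitochondria, passed 2-fold with 3235 on the MYC-labelled array, 1484 on the PI3K array and 2346 on the vector array. IMPDH2, which commits purines to guanine nucleotides, had 11766 on the MYC-labelled array, 6682 on the PI3K array and 8435 on the vector array (difference 0.82). SRM, spermidine synthase, differed by 0.67, and TFRC, the transferrin receptor, was on the other side at -0.52. Ribosome biogenesis genes had a median of 0.27 (33 of 41 above 0), led by the nucleolar protein LYAR at 0.98, with 5376 on the MYC-labelled array, 2722 on the PI3K array and 2733 on the vector array. Aminoacyl-tRNA synthetases had a median of 0.31 (14 of 18 above 0), with LARS1 highest (5702 on the MYC-labelled array, 2905 on the PI3K array and 3669 on the vector array). Of 65 cytosolic ribosomal protein genes, 61 were above 0, with a median of 0.18. RPL14 gave 0.95 and 1.69 with its 2 probes, and ribosomal protein probes can read pseudogene copies. Mitochondrial ribosomal proteins had 44 of 57 above 0 with a median of 0.19, translation factors 28 of 37 with 0.15, and the respiratory chain 26 of 47 with 0.02. By the probe that stood for each gene, GRPEL1 was the 1 member of these lists 2-fold apart. The medians of both ribosomal protein lists, translation factors and the respiratory chain were no farther from 0 than that of housekeeping genes. The housekeeping median, -0.20, lay on the other side.

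Against the vector, both oncogene arrays stood on the higher side for these groups. The MYC growth targets had a median of 0.57 on the MYC-labelled array and 0.37 on the PI3K array, ribosome biogenesis genes 0.60 and 0.28, and cytosolic ribosomal proteins 0.34 and 0.17 in the same order. Housekeeping genes had medians against the vector of 0.02 on the MYC-labelled array and 0.25 on the PI3K array. On the PI3K array the median of cytosolic ribosomal proteins was thus below that of housekeeping genes. That of ribosome biogenesis genes was close to it. Both array differences share the vector array.

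The ATF4 programme had the highest list median, at 0.52. ATF4 is a transcription factor translated when amino acids run short or protein folding fails, and it raises genes of amino acid synthesis and transport. Of 35 measured members, 30 were above 0, 6 were at least 2-fold higher and none was 2-fold lower. The median difference from the vector was 0.31 on the MYC-labelled array and -0.12 on the PI3K array, and 28 and 11 members stood above the vector. INHBE, the beta E subunit of activin, had 1025 on the MYC-labelled array, 170 on the PI3K array and 184 on the vector array, and was at least 3.61-fold higher on the MYC-labelled array. CTH, which makes cysteine from cystathionine, had 822 on the MYC-labelled array, 281 on the PI3K array and 405 on the vector array. PCK2, the mitochondrial PEP carboxykinase, had 6345 on the MYC-labelled array, 2579 on the PI3K array and 4729 on the vector array (difference 1.30, and 1.02 with its second probe). NUPR1, a stress-induced nuclear protein, had 1797 on the MYC-labelled array, 569 on the PI3K array and 1980 on the vector array (difference 1.66, and 1.75 with its second probe). PSPH, the last enzyme of serine synthesis, differed by 1.07 and ATF3, a stress-induced transcription factor, by 1.15. INHBE, CTH and PSPH were above the vector on the MYC-labelled array, while NUPR1 and ATF3 were near it there and below it on the PI3K array. ASNS, asparagine synthetase, had 14903 on the MYC-labelled array, 8996 on the PI3K array and 8187 on the vector array (difference 0.73, named after its value was seen).

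Genes of the unfolded protein response were also on the higher side, with 24 of 30 above 0 and a median of 0.24. FKBP11 had 5288 on the MYC-labelled array, 1507 on the PI3K array and 1007 on the vector array (difference 1.81). DNAJB9, a chaperone of the endoplasmic reticulum, had 789 on the MYC-labelled array, 371 on the PI3K array and 484 on the vector array (difference 1.09). XBP1, a transcription factor of this response, differed by 0.91 and 0.97 with its 2 probes, and HSPA5, the chaperone BiP, by 0.78. ERO1A, an oxidase for disulphide bonds that hypoxia also raises, was at -0.26. Heat shock chaperones of the cytosol did not share the direction (13 of 30 above 0, median -0.08), and HSP90AA1 was at -0.73.

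**Figure D3:**
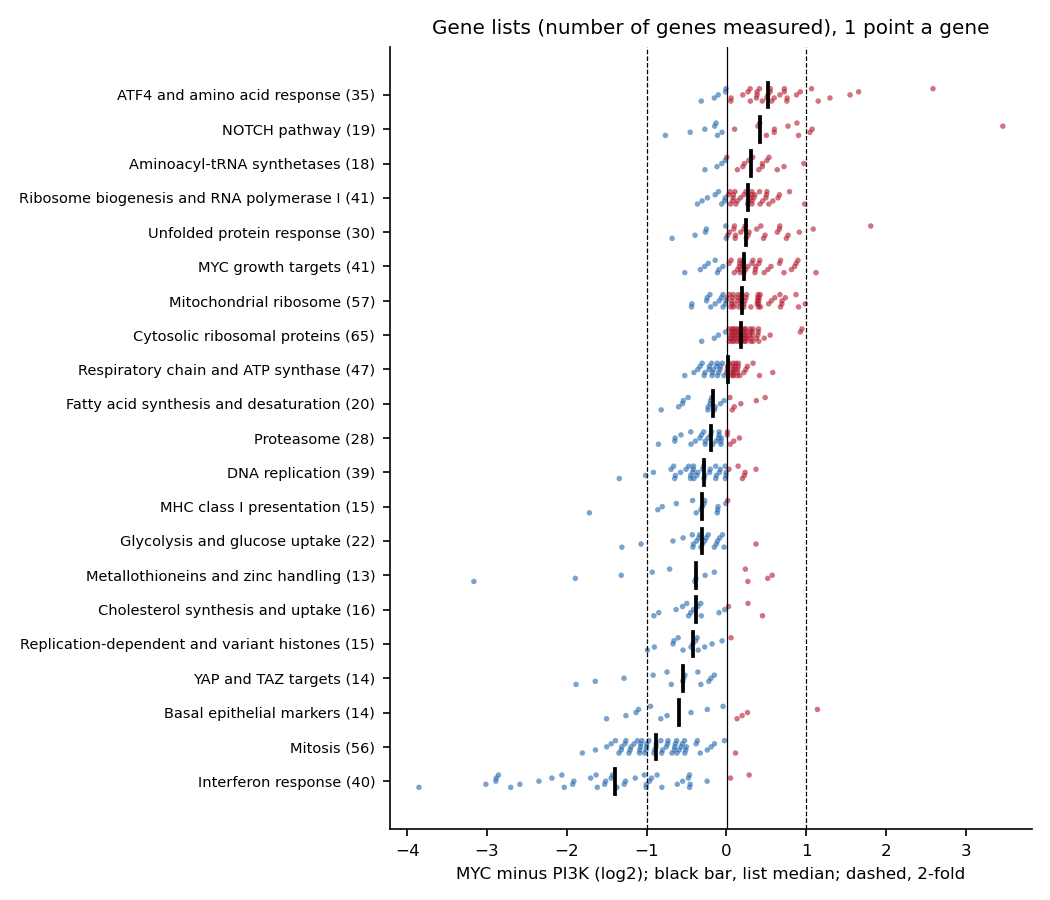
Log2 difference of the MYC-labelled array minus the PI3K array (horizontal axis) for the measured members of 21 gene lists, 1 point a gene, with the number measured beside each name. Black bars are list medians, the solid line is the median of all genes (0.01) and dashed lines mark 2-fold. Medians run down the page with ATF4 and amino acid response genes (0.52) at the top and interferon response genes (-1.40) at the bottom.

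Lipid, sugar and protein turnover genes were lower on the MYC-labelled array by modest amounts. Cholesterol synthesis and uptake genes had 13 of 16 measured members below 0 and a median of -0.38, with none 2-fold apart. Both arrays were above the vector here, with a median difference of 0.57 on the MYC-labelled array and 0.95 on the PI3K array. LSS, lanosterol synthase, had 1557 on the MYC-labelled array, 2923 on the PI3K array and 1406 on the vector array (difference -0.91). MVD, the mevalonate decarboxylase, had 405 on the MYC-labelled array, 729 on the PI3K array and 230 on the vector array (difference -0.85). Fatty acid synthesis genes had 14 of 20 below 0 and a median of -0.16. ACLY, which makes cytosolic acetyl-CoA, had 1886 on the MYC-labelled array, 2740 on the PI3K array and 936.5 on the vector array. Of 22 glycolysis genes, 21 were below 0, with a median of -0.31. SLC2A3, a high-affinity glucose transporter, had 458 on the MYC-labelled array, 1136 on the PI3K array and 437 on the vector array (difference -1.31). PGK1, phosphoglycerate kinase, had 840 on the MYC-labelled array, 1763 on the PI3K array and 938 on the vector array (difference -1.07). GPI, which interconverts hexose phosphates, was the 1 member above 0, at 0.37. Proteasome subunits had 23 of 28 below 0 and a median of -0.19, with PSMD8 lowest at -0.85. The fatty acid and proteasome medians were no farther from 0 than that of housekeeping genes (-0.20, 7 of 22 above 0).

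Genes of the pentose phosphate route and of purine and pyrimidine synthesis leaned the other way. Their medians were 0.29 (7 of 10 above 0) and 0.23 (14 of 21 above 0). In the second list RRM2, at -1.01, was the 1 member at least 2-fold lower, though not at its bound. PGLS, the lactonase of the pentose phosphate pathway, had 5799 on the MYC-labelled array, 2765 on the PI3K array and 3163 on the vector array (difference 1.07). Hypoxia-inducible genes had a median of -0.15 and split. BNIP3, a mitophagy receptor, had 2890 on the MYC-labelled array, 6689 on the PI3K array and 3000 on the vector array (difference -1.21), and ADM was lower too. CA12, a carbonic anhydrase, was at least 3.37-fold higher on the MYC-labelled array, with 956 on the MYC-labelled array, 282 on the PI3K array and 738 on the vector array.

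Metallothioneins, small proteins that bind zinc and copper, were lower on the MYC-labelled array. MT1G had 709 on the MYC-labelled array, 6363 on the PI3K array and 1056 on the vector array, an 8.97-fold lower signal. MT1E had 7333 on the MYC-labelled array, 27240 on the PI3K array and 15079 on the vector array, a difference of -1.89. MT1F (-1.32), MT1X (-0.93) and MT2A (-0.71) followed. For MT1F and MT1X the vector array was the highest of the 3, and for MT1G, MT1E and MT2A the PI3K array was. These genes are near-identical copies of one another and a probe may read several. Over the list with zinc transporters, 3 of 13 were 2-fold lower and the median was -0.38.

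**Figure D4:**
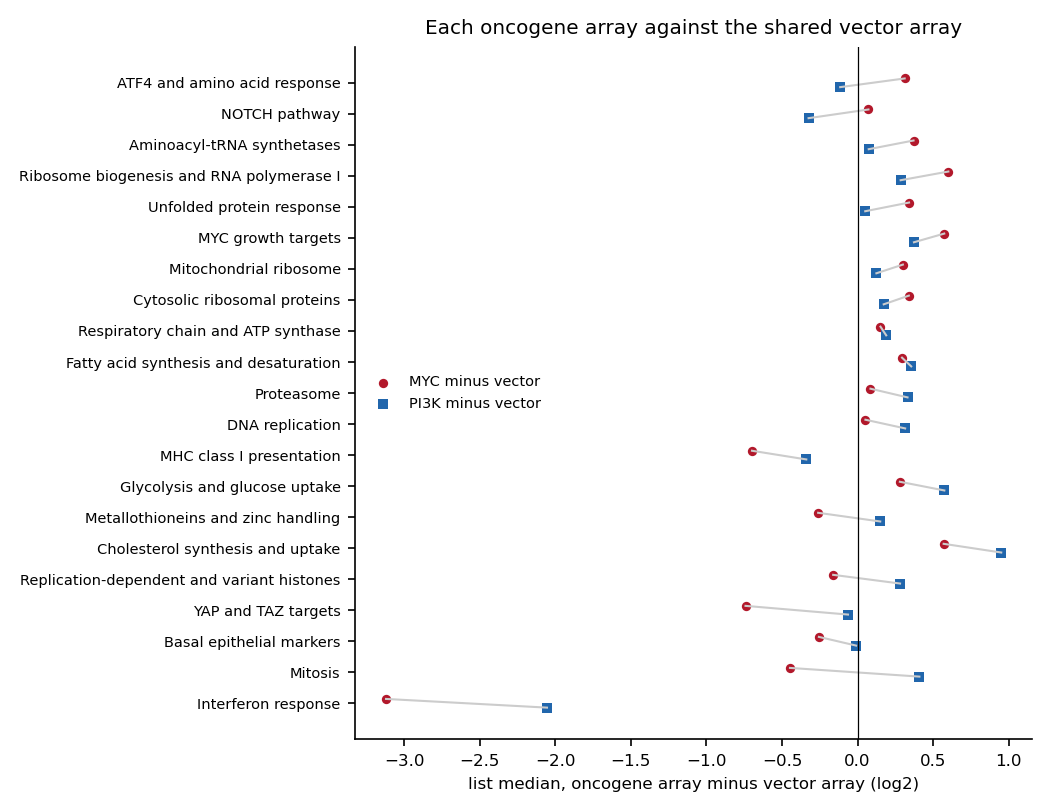
Median log2 difference from the vector array (horizontal axis) of the same 21 lists, on the MYC-labelled array (red circles) and on the PI3K array (blue squares), 1 array a group. Both differences share the vector array. Interferon genes were below the vector on both arrays, cholesterol genes above it on both, and mitosis genes below it on the MYC-labelled array (-0.45) and above it on the PI3K array (0.41).

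Epithelial identity was checked with keratins. RWPE1 cells had the basal keratin genes KRT5 and KRT14 far above background on all 3 arrays. KRT5 had 5473 on the MYC-labelled array, 11735 on the PI3K array and 17322 on the vector array, and KRT14 had 5975, 13094 and 23640 in that order. Both were over 2-fold lower on the MYC-labelled array than on the PI3K array. Of 14 measured basal markers, 4 were 2-fold lower, 3 of them at their bound, and 1 was higher, with a median of -0.59. ITGB4, the integrin subunit of hemidesmosomes, had 3715 on the MYC-labelled array, 7182 on the PI3K array and 4356 on the vector array, with a second probe at -1.14. LAMB3, a chain of their ligand laminin-332, was the one at least 2-fold higher, with 5723 on the MYC-labelled array, 2593 on the PI3K array and 3651 on the vector array. CAV1, the caveolin, had 8502 on the MYC-labelled array, 20348 on the PI3K array and 17205 on the vector array (difference -1.26). The simple-epithelium keratin KRT19 differed by -1.73 (1200 on the MYC-labelled array, 3980 on the PI3K array and 7165 on the vector array). KRT8, a luminal keratin, differed by -0.80, and the basal keratin KRT15 was at least 1.66-fold lower on the MYC-labelled array. KRT18 was above background on the MYC-labelled array alone, at 302 against 146 on the PI3K array and 148 on the vector array. It was near the limit there, so its bound was only 1.06-fold higher than on the PI3K array. Its other probe was below background on both oncogene arrays. KLK3, the prostate-specific antigen gene, was below background on all 3 arrays, and TP63 was not analysed here.

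Differentiation and matrix genes differed in both directions. S100A8 and S100A9, paired calcium-binding proteins of stressed epithelium, were lower on the MYC-labelled array. S100A9 had 456 on the MYC-labelled array, 1485 on the PI3K array and 1337 on the vector array (difference -1.70), and S100A8 was at least 2.16-fold lower. Among 11 measured mesenchymal genes, 7 were above 0 and 2 were at least 2-fold higher, and COL1A1, COL3A1 and DCN were below background on all 3 arrays. TNC, the matrix protein tenascin C, had 1092 on the MYC-labelled array, 376 on the PI3K array and 754 on the vector array (difference 1.54). ACTA2, smooth muscle actin, had 1208 on the MYC-labelled array, 450 on the PI3K array and 694 on the vector array (difference 1.43). VIM, vimentin, had 19080 on the MYC-labelled array, 13327 on the PI3K array and 12491 on the vector array. TIMP2, an inhibitor of metalloproteinases, differed by -1.40, opposite to MMP9, and its second probe read 260 on the MYC-labelled array and 518 on the PI3K array.

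NOTCH pathway genes had a median of 0.42 (12 of 19 above 0, 3 at least 2-fold higher), or 0.25 with dim genes at their bound. Beside NOTCH3, the receptor NOTCH1 had 2849 on the MYC-labelled array, 1351 on the PI3K array and 4385 on the vector array (difference 1.08). The ligand genes JAG1 (0.89) and DLL3 (1.05) and the target HES1 (0.91) lay on the same side. HES1 had 783 on the MYC-labelled array, 418 on the PI3K array and 1008 on the vector array, so NOTCH1 and HES1 were lowest on the PI3K array and did not exceed the vector on the MYC-labelled array.

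Targets of YAP and TAZ, the effectors of the Hippo pathway, were all below 0, with 3 of 14 measured members 2-fold lower and a median of -0.54. CCN2, a matricellular protein, had 391 on the MYC-labelled array, 1442 on the PI3K array and 6410 on the vector array (difference -1.88). F3, tissue factor, had 1533 on the MYC-labelled array, 4786 on the PI3K array and 3036 on the vector array (difference -1.64). AXL, a receptor kinase, gave -1.28 and -1.56 with its 2 probes. The list's median difference from the vector was -0.74 on the MYC-labelled array and -0.06 on the PI3K array.

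Growth factor genes differed singly and not as lists. The list of TGF-beta, activin and BMP genes had 4 members at least 2-fold higher and 3 lower. INHBE, ID1 and ID3 were on the higher side, and FST, CCN2 and FSTL1 on the lower. FSTL1, a follistatin-like glycoprotein, had 188 on the MYC-labelled array, 669 on the PI3K array and 406 on the vector array, and was at least 2.36-fold lower. In the FGF list (median -0.14) FGFR3, a receptor, had 492 on the MYC-labelled array, 1098 on the PI3K array and 885 on the vector array. The EGF family list was near 0 (median 0.05, 5 of 7 above 0) apart from HBEGF, and EGFR itself had 3943 on the MYC-labelled array, 3438 on the PI3K array and 3364 on the vector array. ERK feedback genes had a median of 0.23 with 9 of 17 above 0. WNT genes had a median of -0.03, with DKK3, a Dickkopf-family protein, at -1.09 and -1.13 with its 2 kept probes.

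Genes of the introduced pathways themselves gave no group difference. The PI3K, AKT and mTOR list had 9 of 24 members above 0 and a median of -0.06. SGK1 (-2.06) and the translation repressor EIF4EBP2 were lower, and INPP5D, the lipid phosphatase SHIP1, was higher at 1.08 (1132 on the MYC-labelled array, 535 on the PI3K array and 906 on the vector array). EIF4EBP1, another such repressor, was at 0.90. PIK3R1, the regulatory subunit of PI3K, differed by -0.88 and -0.71 with its 2 kept probes and was highest on the vector array (598 on the MYC-labelled array, 1101 on the PI3K array and 2081 on the vector array). FOXO-activated genes had 10 of 23 above 0 and a median of -0.07, and their medians against the vector were -0.22 on the MYC-labelled array and -0.21 on the PI3K array. In the MYC network list 8 of 16 were above 0. MXD1, a MAX partner that opposes MYC, had 1287 on the MYC-labelled array, 523 on the PI3K array and 813 on the vector array (difference 1.30), and MXD4, its relative, differed by 0.94.

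Stress and death genes were mixed. Of 20 measured p53 targets, 13 were above 0 and 2 were at least 2-fold higher, with a median of 0.13. TNFRSF10B, a receptor for the death ligand TRAIL, had 5405 on the MYC-labelled array, 2386 on the PI3K array and 4033 on the vector array (difference 1.18, and 0.90 with its second probe). XPC, a sensor of DNA damage, had 1359 on the MYC-labelled array, 627 on the PI3K array and 1770 on the vector array (difference 1.12). GADD45A, a growth arrest protein, differed by 0.76. Among apoptosis regulators 3 of 28 were at least 2-fold higher and 3 lower. CASP1, the inflammasome protease, gave -1.81 and -1.75 with its 2 kept probes, and BCL2L1, the survival protein BCL-XL, had 5135 on the MYC-labelled array, 9924 on the PI3K array and 9230 on the vector array (difference -0.95). TNFRSF8, the receptor CD30, was higher at 1.28. Antioxidant genes had a median of -0.05 and lysosome genes -0.03, with no member of either 2-fold apart.

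Markers of other cell types were nearly absent. Of 21 leukocyte markers on the array 3 were measured, with a summed signal of 1733 on the MYC-labelled array, 2377 on the PI3K array and 1566 on the vector array, and PTPRC, CD3D, CD14 and LYZ were below background on all 3. LCP1, an actin-bundling protein of leukocytes that tumour cells can also express, was the member apart, with 180 on the MYC-labelled array, 587 on the PI3K array and 140 on the vector array, and it was above background on the PI3K array only. Of 11 endothelial markers 1 was measured, and PECAM1, CDH5 and VWF were below background. Of 13 neuroendocrine markers 4 were measured, GAL among them, and CHGA and SYP were below background. Housekeeping genes had a median of -0.20 with 7 of 22 above 0, and 1, PGK1, was 2-fold lower. That median is within the quartiles of all genes but below their median of 0.01.

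Differences also ran together along chromosomes, a pattern looked for after the differences had been seen. Each of 7796 genes was placed by its order in RefSeq and grouped into 377 windows of 20 measured neighbours. The window medians had quartiles of -0.10 and 0.10, and 27 lay above 0.3 and 11 below -0.3. Of those above 0.3, 8 lay on chromosome 3, 6 on chromosome 22 and 4 on chromosome 8. Over all genes kept, 51.2% were above 0, 2.29% were at least 2-fold higher and 2.63% at least 2-fold lower. On chromosome 22, 131 of 165 genes (79.4%) were higher on the MYC-labelled array, with a median of 0.33, 9 genes at least 2-fold higher and 0 lower. The chromosome's median difference from the vector was 0.18 on the MYC-labelled array and -0.19 on the PI3K array. On chromosome 18 the median was 0.38 (75 of 104 genes above 0, 11 at least 2-fold higher and 0 lower), and it was 0.32 on the MYC-labelled array and 0.00 on the PI3K array against the vector. On chromosome 10 the median was -0.18, with 99 of 318 genes above 0, and it was 0.15 on the MYC-labelled array and 0.37 on the PI3K array against the vector. Chromosome 1, which had the most genes (788), had medians against the vector of 0.08 on the MYC-labelled array and 0.14 on the PI3K array.

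Some of these runs ended within a chromosome. The first 10 windows of chromosome 3, from TRNT1 to ARL6IP5, had medians of 0.27 to 0.52, and the next 10, from LMOD3 to OPA1, had medians of -0.31 to 0.10. In those first 10 windows the PI3K array lay below the vector by medians of -0.39 to -0.16. On chromosome 20 the first 4 windows, up to HM13, had medians of 0.16 to 0.30, and the other 8, which begin with ID1, had medians of -0.32 to -0.17. In the window from AAR2 to TOP1, 0 of 20 genes were above 0. The highest window of all, from DDX39A to SIN3B on chromosome 19, had a median of 0.65 with 16 of 20 genes above 0. Against the vector its median was 0.72 on the MYC-labelled array and 0.01 on the PI3K array, and NOTCH3 lies within it. Several genes named above sit in such windows. XPC and RPL14 lie in the first 10 windows of chromosome 3, XBP1 in a chromosome 22 window with a median of 0.40, LYAR in a chromosome 4 window with a median of 0.47 and NDC80 in a chromosome 18 window with a median of 0.42. IFIT1 and IFIT2 lie in the lowest window of all, from STAMBPL1 to EXOC6 on chromosome 10, with a median of -0.44. DNA copy number was not measured on these arrays, and its part in these runs was not tested.

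**Figure D5:**
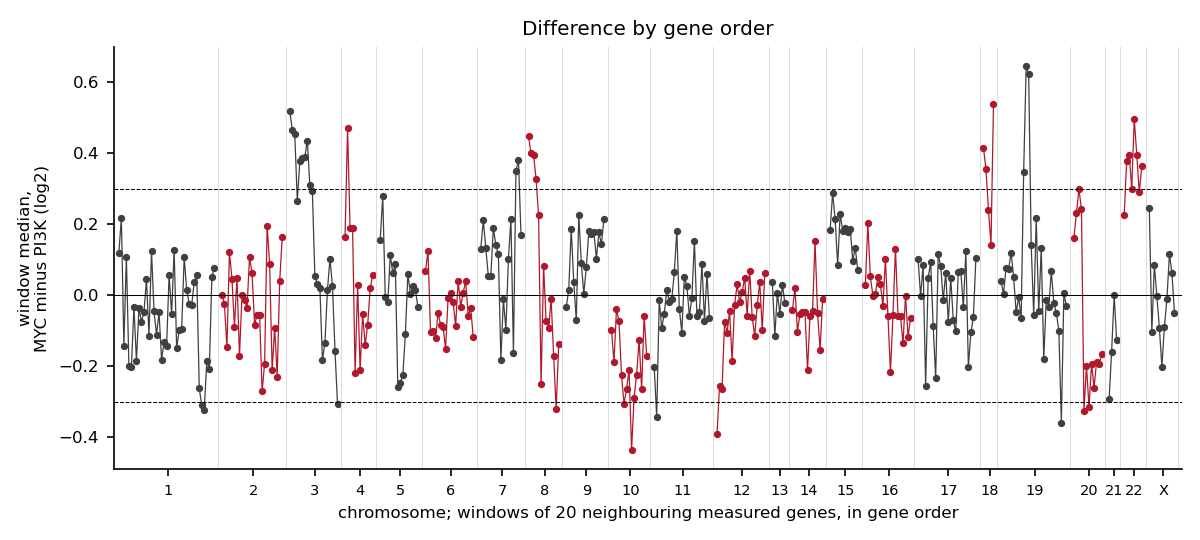
Median log2 difference of the MYC-labelled array minus the PI3K array (vertical axis) in 377 windows of 20 neighbouring measured genes, in gene order along chromosomes 1 to 22 and X (horizontal axis), 1 point a window and 1 array a group. Dashed lines are drawn at 0.3 and -0.3. The first 10 windows of chromosome 3 and all 8 of chromosome 22 lie above 0, and the highest window, on chromosome 19, has a median of 0.65.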

How the data were processed

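Total RNA of 3 RWPE1 cultures was read on Illumina arrays of 24526 probes, 1 array a group. The submitters' processing notes list GenomeStudio without a version. The authors deposited unnormalised linear signal intensity for the MYC-labelled and vector arrays, per the file headers. The fraction deposited beside each signal is called a detection p-value in the header but ranks with the signal (rank correlation 0.981 on the MYC-labelled array), so it was read as 1 minus that p-value. The authors' deposited log2 values cover all 3 arrays. Their MYC minus vector difference equals the log2 ratio of signals scaled to the 75th percentile, with the same offset (0.517) for every probe. The deposited values themselves are less a constant per probe whose origin is unknown, and it cancels in a difference between arrays. The 2 columns that name no sample of the series were not used.

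The PI3K signal was rebuilt as the vector signal times 2 raised to the deposited log2 difference between PI3K and vector. Its 75th percentile was 563.5, the same as the vector's. The PI3K array has no usable detection values, so the limit of 284, the scaled limit of the MYC-labelled array, stood in for them, and calls below background on it rest on that substitute. A gene took its brightest kept probe (mean of both oncogene arrays). Of 21834 probes with 1 symbol, 21813 were matched to current RefSeq symbols, and 2692 probes are unnamed here. Where only 1 array read a gene above background, its bound sets that signal against the dim array's limit or the dim reading, whichever is greater. Genes named are the 15 highest and 15 lowest above background on both arrays, the 6 highest bounds each way, up to 6 members of each list in the direction of its median and up to 3 that were 2-fold the other way, and genes opposite from the vector. Genes given only as examples of a count, marker genes, neighbours in gene order and the few members singled out against their list fall outside that rule and were picked after their values were seen. The members and all 56 lists were chosen with earlier results of these data known.

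No test was possible with 1 array a group, and the number of arrays limits precision. Alternatives were normexp background correction (limma 3.58.1 in R 4.3.3, offset 50) with quantile normalisation, quantile normalisation alone, centring, 3 other background filters, 2 other probe rules and bounds. The script was tested on simulated differences of known size.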

Additional observations from a re-analysis of the deposited data

Results flagged for a closer look

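For 7 genes the readings of the MYC-labelled array and the PI3K array stood on opposite sides of the vector reading, each at least 2-fold from it, but 1 or more of each gene's readings lay below background. With such readings raised to their array's limit, PHACTR3 and ECM2 were still 2-fold from the vector each way, and the other 5 were not. Whether the effects differ was not tested, since each group is 1 array, and both differences share the vector array. NOTCH3 had the largest direct difference, 3.47, with signals of 2101 on the MYC-labelled array, 190 on the PI3K array and 390 on the vector array. ECM2 differed by 2.78, with 1671 on the MYC-labelled array, 243 on the PI3K array and 683 on the vector array. ADGRL1 differed by 2.66, with 1165 on the MYC-labelled array, 185 on the PI3K array and 428 on the vector array. In the other direction, PHACTR3, a regulator of protein phosphatase 1, differed by -3.14 (220 on the MYC-labelled array, 1944 on the PI3K array and 596 on the vector array), and its second probe gave -2.20. SYCP2, a protein of the meiotic synaptonemal complex, differed by -2.46 (89 on the MYC-labelled array, 488 on the PI3K array and 202 on the vector array). ALX1, a homeobox gene, differed by -2.30 (101 on the MYC-labelled array, 499 on the PI3K array and 216 on the vector array). C1orf115 differed by -2.03 (148 on the MYC-labelled array, 605 on the PI3K array and 296 on the vector array). All 7 were below background on the lower of the 2 oncogene arrays, and SYCP2 and ALX1 on the vector array too. In the direct difference at their bound SYCP2 and ALX1 were within 2-fold.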

How the results depend on the processing

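No paired analysis was possible because each group is 1 array. The number of genes at least 2-fold lower on the MYC-labelled array was 205, and it was 129 when a gene had to be above background on both arrays, since fewer genes were tested. Under the other alternatives it ran between 152 and 236, and the number higher (179) between 120 and 193. Under alternative filters, some list medians shifted by more than the probe SD. With no detection filter they were -1.11 for interferon genes, 0.10 for NOTCH genes, -0.32 for YAP and TAZ targets, 0.059 for FGF genes, 0.025 for ERK genes and 0.056 for neuroendocrine markers, and the leukocyte median, -0.24 over 3 genes, turned to 0.0002. With dim genes at their bound the interferon median was -0.98. Above background on both arrays, luminal markers were at -0.42 and neuroendocrine markers at 0.79, and with the vector's own limit on the PI3K array neuroendocrine markers were at 0.14. The medians of mitosis (-0.91 to -0.82) and of ATF4 genes (0.47 to 0.53) kept their direction under every alternative. ANGPTL4 (-0.25) turned to 0.017 with the mean over its 2 kept probes. The cause of the other shifts was not tested. Gene values rest on 1 array each, the PI3K detection limit is borrowed, and dim genes are compressed by unsubtracted background.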
